A study of Mus musculus with 12 samples.

Results

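The effect of losing polynucleotide phosphorylase (PNPase, encoded by Pnpt1) was examined apart from the loss of mitochondrial DNA (mtDNA) by setting both PNPase-null lines of mouse embryonic fibroblasts (MEFs), PKO-1 and PKO-6, against both PNPase-positive lines, TM6 and rho0. The comparison used all 12 libraries of the series, 6 from PNPase-null and 6 from PNPase-positive cells, with 3 biological replicates in each of 4 lines. A gene was counted as shifted when all 4 differences between a PKO clone and a PNPase-positive line had 1 direction, a log2 fold change beyond 0.5 and, for the weakest of the 4, an adjusted p below 0.01. Of 14026 genes tested, 340 were shifted, 211 higher and 129 lower in the PKO clones. In cultured cells read in bulk, fewer cells that express a gene and less of its RNA per cell cannot be told apart.

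All 4 lines share a C57BL6/J origin, immortalization with SV40 large T antigen, a Pnpt1 allele pair with loxP sites (neo-flox/neo-flox in the labels), and medium with uridine at 50 µg/mL. TM6 is the untreated parent. The rho0 line was treated with ditercalinium, a DNA-binding drug, at 750 ng/mL for 3 weeks and grown from a single cell, so that it has PNPase and no mtDNA. PKO-1 and PKO-6 are single cell clones that arose after an adenovirus delivered Cre recombinase. Each of these lines is 1 clone, the viral infection and Cre were shared by the PKO clones, and their effects cannot be told apart from that of PNPase loss. The p-values measure the spread between cultures of a line. With the line as the unit, 2 lines against 2 allow no two-sided exact permutation p below 0.333.

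PNPase is an exoribonuclease that degrades RNA from the 3′ end and sits mainly in mitochondria, where it takes part in the turnover and import of RNA. The study describes the PKO clones as lacking mtDNA, which is why a line without mtDNA that keeps PNPase was set beside the parent line. A gene that moves with mtDNA loss alone should differ from TM6 in rho0 as well as in the PKO clones, and it then fails the comparison of PKO with rho0.

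Pnpt1 was read in every line as a check of the labels. By the study's description, Cre removes the part of exon 2 that loxP sites flank. Exon 2 lies at chr11:29132845-29132905 on the plus strand (GRCm38) in both the deposited gene models and GENCODE vM21. It is shown here in full as annotated, and the positions of the loxP sites are not given in the sources used here.
Pnpt1 exon 2: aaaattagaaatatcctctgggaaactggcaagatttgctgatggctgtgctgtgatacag
Exon 2 is 61 bases long, which is 20 whole codons and 1 base, and the transcript has 28 exons. When exon 1 was joined to exon 3 in the reference transcript, the reading frame reached a stop after 59 codons, in exon 3, against 783 codons in the intact frame.

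The 3 TM6 libraries held 2832, 3242 and 3319 normalized counts of Pnpt1, that is, counts divided by the scaled size of each library. The 3 rho0 libraries held 5051, 5251 and 5510. The PKO-1 libraries held 1191, 1254 and 1276, and those of PKO-6 held 1720, 1897 and 2214. The 6 PKO libraries thus lay below all 6 PNPase-positive libraries, and rho0 was above TM6. With the 4 lines weighted equally, Pnpt1 was lower in PKO by a log2 fold change of -1.39 ± 0.06 (SE; edgeR's quasi-likelihood test, adjusted p = 2.8e-10), and the smallest of the 4 differences was -0.69 (adjusted p = 1.2e-04). The gene count covers all 28 exons and therefore includes reads from outside the excised exon. In every library it lay on the side that its label gives.

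Library totals ran from 47164860 to 67991378 counts, of which 12.2% to 19.6% fell on Rn45s, the ribosomal RNA precursor. Of 10 fibroblast markers, 7 or 8 exceeded 1 TPM (RSEM's length-scaled transcript level) in every line, with a summed level of 3024 to 6956 TPM, and Thy1 was at 0 in all PKO-6 libraries. Summed endothelial markers were at 0.13 to 0.53 TPM in TM6 and rho0, 0.18 to 0.34 in PKO-1 and 0.91 to 1.0 in PKO-6. Summed skeletal muscle markers were at 0.05 to 0.17 TPM in TM6 and rho0 and 0.38 to 0.57 in PKO. Des made up most of the PKO sum and was the 1 marker of that list abundant enough to be tested. Actc1 and Myh3 of that list were at 0 in TM6 and rho0, and Myog was at 0 in all 12 libraries. Summed neural markers were at 19.7 to 22.4 TPM in TM6 and rho0, 31.6 to 34.6 in PKO-1 and 13.9 to 17.8 in PKO-6. Epithelial markers summed to 45.5 to 48.5 TPM in TM6, 70.1 to 73.4 in rho0, 50.2 to 53.1 in PKO-1 and 74.5 to 81.1 in PKO-6. Those above 1 TPM were Krt18 and Krt19 in TM6, rho0 and PKO-1, and Epcam and Krt19 in PKO-6. The lowest fibroblast sums were in PKO-6, at 3024 to 3344 TPM. The part of these markers in the differences was not tested.

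The equally weighted contrast of PKO against PNPase-positive lines called 2917 of 14026 genes (20.8%), with the same limits of 0.01 for the adjusted p and 0.5 for the size of the log2 fold change. Of these, 1496 (10.7%) were higher and 1421 (10.1%) lower in PKO. Only 340 genes, 2.42% of those tested, met the stricter rule of 4 differences in 1 direction: 211 (1.5%) higher and 129 (0.92%) lower. The other 2577 genes called in the contrast missed the rule in at least 1 of the 4 differences. Libraries of the 2 groups did not overlap for 1591 genes (11.3%), among them all 340 shifted genes. The median of the smallest absolute log2 fold change over the shifted genes was 0.94. It exceeded 1 in 157 genes (92 higher, 65 lower) and 2 in 60 genes (26 higher, 34 lower).

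The count in the contrast depended on which spread was taken as the error. When line was left out and the 6 libraries of each side were treated as replicates, 704 genes were called. With line as a random block in limma, which takes the libraries of a line as correlated (estimated correlation 0.886), 9 genes were called and 995 had an unadjusted p below 0.05. Pnpt1 itself had an adjusted p of 0.149 there. All 9 of those genes were among the 340 shifted genes. They are described next, because their difference between the groups was large beside the spread between lines, and they were singled out after their values were seen.

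Etv1, a transcription factor of the ETS family, held 244 to 271 normalized counts in TM6, 238 to 253 in rho0, 1688 to 1788 in PKO-1 and 1004 to 1122 in PKO-6. Its contrast was 2.42 ± 0.05 (log2, SE; adjusted p = 3.7e-13). Errfi1 encodes MIG6, an inhibitor of the epidermal growth factor (EGF) receptor kinase, and ranged from 3192 to 3801 in the 6 PNPase-positive libraries (median 3520) and from 7789 to 12760 in the PKO libraries. Spp1, encoding the secreted phosphoprotein osteopontin, rose from 7778 ± 403 in TM6 and 5059 ± 375 in rho0 (SD, n = 3) to 62260 ± 4015 in PKO-1 and 23330 ± 1561 in PKO-6. Both PKO clones therefore exceeded both references for all 3 genes, by at least 1.18 on the log2 scale for Errfi1.
Xdh, encoding xanthine dehydrogenase of purine breakdown, gave 229 ± 9.82 in TM6, 680 ± 43.5 in rho0, 2397 ± 142 in PKO-1 and 1977 ± 40.9 in PKO-6. Rorb, an orphan nuclear receptor, gave 602 ± 52.2, 1601 ± 38.4, 4103 ± 98.5 and 5457 ± 354 in the same order. Ccbe1, a secreted protein needed for lymphatic vessel growth, gave 545 ± 21.7, 502 ± 31.0, 1973 ± 83.2 and 2269 ± 146. Xdh and Rorb were also higher in rho0 than in TM6, while the adjusted p of that difference was above 0.01 for Ccbe1.
Fam129a, Lama2 and Fam65b were the 3 lower genes of this set. Fam129a, which encodes the stress-related protein niban, held 1098 to 1137 normalized counts in TM6, 2048 to 2281 in rho0 and 29.0 to 58.6 in the 6 PKO libraries. Lama2, the alpha 2 chain of the basement membrane protein laminin, held 1549 to 2237 in the PNPase-positive libraries against 86.9 to 406 in PKO. Fam65b gave 1931 ± 2.63 in TM6, 1997 ± 46.7 in rho0, 308 ± 29.3 in PKO-1 and 685 ± 16.7 in PKO-6.

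**Figure D1:**
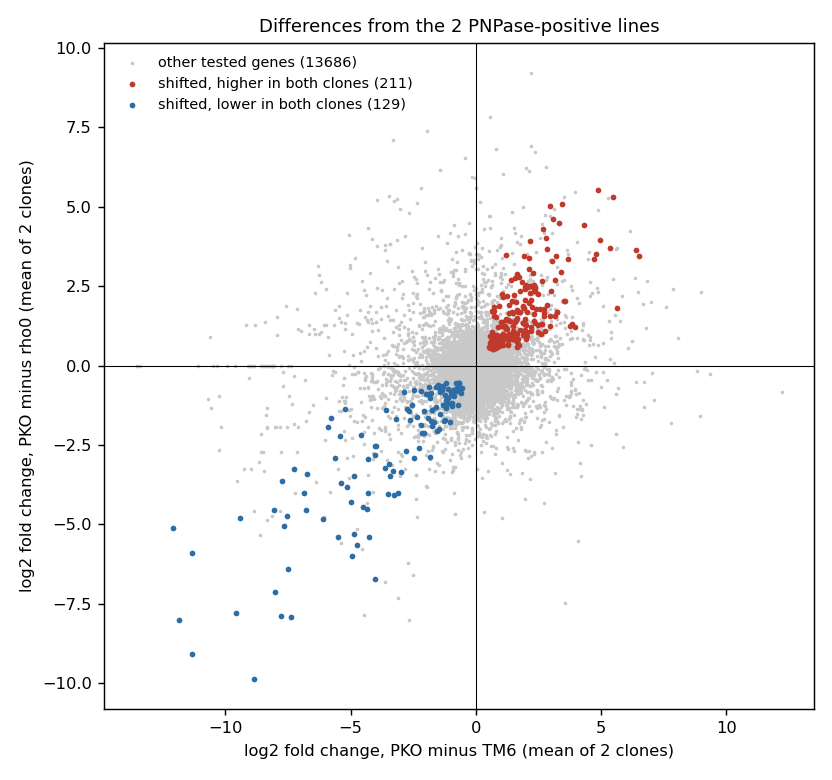
Log2 fold change of PKO against TM6 (horizontal) and against rho0 (vertical), each the mean over PKO-1 and PKO-6, for the 14026 genes tested. Red points are the 211 genes higher and blue points the 129 genes lower in all 4 differences, and they fill the upper right and lower left corners by construction, while grey points spread along both axes.

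Where rho0 stood among the shifted genes was not fixed by the rule. In 188 of the 340 genes rho0 was not called against TM6. In 115 it was called in the same direction as PKO (60 of the higher and 55 of the lower genes), so the order was TM6, rho0, PKO, and in 37 it was called in the opposite direction. Over all tested genes 5902 (42.1%) were called between rho0 and TM6, against 44.7% of the shifted genes. Both clones were called 1 way against TM6 in 3081 genes, of which 11% were shifted, and against rho0 in 1337 genes, of which 25.4% were shifted. The comparisons with TM6 and with rho0 share the PKO libraries.
Clones can also differ from each other. PKO-1 and PKO-6 differed in 4087 of all tested genes (29.1%) and in 126 of the shifted genes (37.1%). PKO-1 was nearer to the PNPase-positive lines in 71 of them and PKO-6 in 55.

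**Figure D2:**
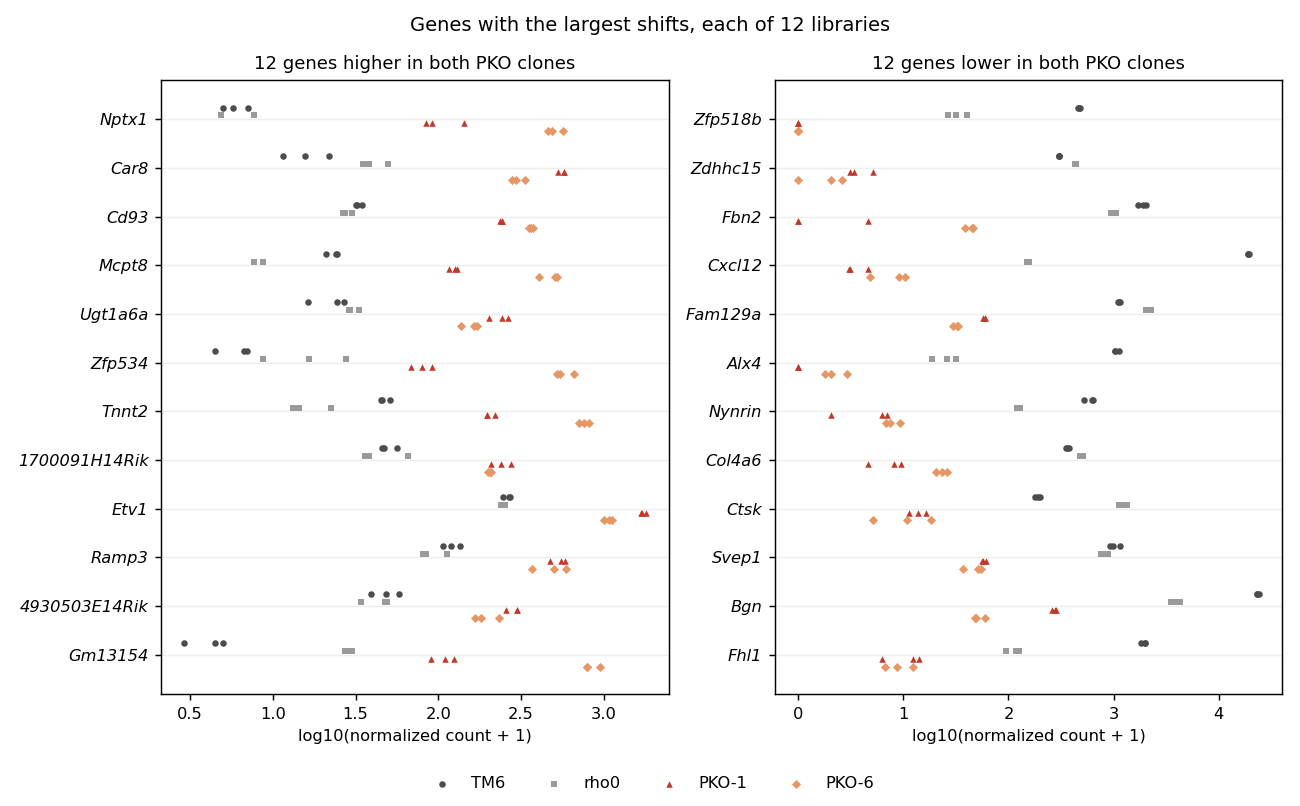
Normalized counts of the 12 higher and 12 lower genes with the largest shifts, as log10 of the count plus 1, in each of the 12 libraries, with TM6 and rho0 in grey shades and the PKO clones in red shades. In every row the 6 PKO libraries lie on 1 side of the 6 PNPase-positive libraries, and in Nptx1, Zfp534 and Gm13154 the PKO-6 libraries lie farther out than PKO-1.

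Among shifted genes averaging 100 normalized counts or more, the 12 that rose furthest from both references had diverse known roles. Nptx1, a neuronal pentraxin that clusters glutamate receptors at synapses, lay at chr11:119538719-119547820 (mm10) and rose most by the smallest difference. Its 6 PNPase-positive libraries held 3.87 to 6.70 normalized counts (median 5.41), PKO-1 held 83.1, 90.5 and 142.7, and PKO-6 held 457.6, 483.9 and 562.8. The groups stood far apart, the contrast was 5.40 ± 0.20 (adjusted p = 4.4e-11), and even the PKO-6 level was only 2.86 TPM.
Car8, a carbonic anhydrase relative without catalytic activity that binds the inositol trisphosphate receptor, held 10.5 to 48.8 in the PNPase-positive libraries against 277 to 577 in PKO (contrast 4.05 ± 0.12). Cd93, a cell surface lectin of endothelial and myeloid cells, held 25.5 to 33.4 against 235 to 370 (3.33 ± 0.08). Mcpt8, a serine protease of basophils, held 6.65 to 23.4 against 116 to 518 (4.26 ± 0.12). Cd93 and Mcpt8 are known from blood-derived or vessel cells. Summed immune markers were at 2.27 to 4.62 TPM in TM6 and rho0, 2.27 to 3.08 in PKO-1 and 4.67 to 6.15 in PKO-6, and their part in these differences was not tested.
Tnnt2, the cardiac troponin T of the contractile apparatus, held 12.2 to 50.2 in the PNPase-positive libraries, 195 to 220 in PKO-1 and 708 to 814 in PKO-6. Ramp3, a partner of the calcitonin-like receptor, held 79.8 to 134 against 367 to 590 in the PKO libraries. Ugt1a6a, a glucuronosyltransferase, held 15.3 to 32.4 against 137 to 262, and its exons overlap those of 7 other genes of the Ugt1a cluster on the same strand, so the split of reads among them is uncertain.
The remaining 5 were Etv1, given above, the zinc finger gene Zfp534 with its neighbour Gm13154, and 1700091H14Rik and 4930503E14Rik, which have no known role. Gm13154 gave 3.12 ± 1.08 in TM6, 27.3 ± 1.55 in rho0, 107 ± 17.2 in PKO-1 and 842 ± 87.9 in PKO-6. Zfp534 gave 5.06 ± 1.39, 16.7 ± 9.46, 78.9 ± 12.0 and 571 ± 73.5. These genes have near-identical relatives in the same clusters, and their counts may be shared with them.

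The 12 genes that fell furthest are taken in the same way. Zfp518b, a zinc finger gene at chr5:38668484-38684826 (mm10), held 456 to 473 normalized counts in TM6, 25.5 to 39.1 in rho0 and 0 in all 6 PKO libraries. Against a floor of 3 counts per library (3.57 normalized counts), it was at least 8.92-fold lower in PKO than in rho0. Zdhhc15, a palmitoyltransferase on chromosome X, held 299 to 303 in TM6 and 430 to 439 in rho0, against 0 to 4.14 in PKO.
Cxcl12, the chemokine that guides cells bearing CXCR4, held 18750 to 19480 normalized counts in TM6 and 148.5 to 155 in rho0. In PKO-1 it held 2.07 to 3.57 and in PKO-6 3.88 to 9.33, so its order was TM6, rho0, PKO over a very wide range. Alx4, a homeobox gene of limb and skull, gave 1064 ± 53.7 in TM6, 24.7 ± 6.59 in rho0, 0 in PKO-1 and 1.27 ± 0.594 in PKO-6.
Fbn2, Col4a6 and Bgn were also among these 12 and are described with the matrix list, and Fam129a is given above. Ctsk, the collagen-degrading protease cathepsin K, was higher in rho0 (1115 to 1342) than in TM6 (179 to 200), and lower than both in PKO (4.15 to 17.5). Its contrast was -5.37 ± 0.16 (adjusted p = 6.6e-12). Svep1, a large adhesion protein that binds integrins, held 755 to 1156 in the PNPase-positive libraries and 35.9 to 59.5 in PKO (-4.15 ± 0.10). Fhl1, a LIM protein of muscle, fell from 1938 ± 112 in TM6 and 112 ± 15.9 in rho0 to 9.93 ± 4.08 in PKO-1 and 8.30 ± 2.87 in PKO-6. Nynrin, a gene of retroviral descent, fell from 594 ± 60.6 and 124 ± 4.72 to 4.10 ± 2.68 and 6.89 ± 1.27.
In 10 of the 129 lower genes no PKO library had more than 3 counts. They included Fam13c, whose PNPase-positive libraries held 60.1 to 340 normalized counts and which was at least 19.1-fold lower in PKO than in rho0. Slc9a9, an endosomal sodium-proton exchanger, held 21.97 to 34.4 against 0 and was at least 7.67-fold lower. Pcdh7, a protocadherin, held 98.6 to 223 against 0 to 0.819, and Piezo2, a stretch-gated channel, held 86.2 to 230 against 0 to 3.10. These genes and Reln were singled out after their values were seen. The reverse was seen in 3 of the 211 higher genes. Of these, Reln, the secreted guidance protein reelin, held 0 to 1.11 in the PNPase-positive libraries and 6.55 to 12.8 in PKO.

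The EGF receptor ligands Areg, Ereg and Btc rose in all 4 differences while the receptor's own transcript fell, and 2 other ligands, Tgfa and Hbegf, did not meet the rule. Ligands such as amphiregulin, epiregulin and betacellulin are made as membrane proteins, are shed and activate the receptor, after which the ERK kinase cascade induces its own inhibitors. In the list of 46 tested growth factor receptors and feedback genes, 24 were higher and 6 lower in the contrast (65.2%, against 20.8% of all genes). In all 4 differences 7 were higher and 1 lower (17.4%, against 2.42%). The median contrast of the list was 0.60, against -0.002 for all tested genes.
Ereg, encoding epiregulin, held 332, 395.5 and 442.7 normalized counts in TM6, 242.2, 284.8 and 290.3 in rho0, 2240, 2375 and 2513 in PKO-1, and 939, 974.4 and 1232 in PKO-6. It was the most abundant of the 3 ligands per length, at 17.4 TPM in PKO-1 and 7.80 TPM in PKO-6. Areg, encoding amphiregulin, held 12.96, 12.97 and 17.2 in TM6, 27.1, 28.8 and 29.0 in rho0, 52.4, 60.7 and 63.1 in PKO-1 and 150.3, 162.1 and 165.8 in PKO-6. Btc, encoding betacellulin, held 14.7 to 22.9 in TM6, 48.8 to 55.2 in rho0, 112 to 127 in PKO-1 and 232 to 280 in PKO-6. No PKO library overlapped a PNPase-positive one for any ligand, and the contrasts were 2.28 ± 0.09 for Ereg, 2.26 ± 0.12 for Areg and 2.48 ± 0.12 for Btc (adjusted p = 7.6e-11, 2.1e-09 and 5.6e-10). The clones ranked differently, since Ereg was higher in PKO-1 and Areg and Btc in PKO-6. Tgfa, encoding transforming growth factor alpha, gave 168 ± 10.2 in TM6, 150 ± 12.5 in rho0, 102 ± 19.6 in PKO-1 and 1341 ± 79.2 in PKO-6, so its PKO-1 mean lay below both references and its PKO-6 mean above them. Hbegf, a heparin-binding ligand, gave 2539 ± 188 in TM6, 2775 ± 73.7 in rho0, 3794 ± 147 in PKO-1 and 5786 ± 313 in PKO-6, with a smallest difference of 0.45.
Egfr, the receptor, held 2717 to 2925 in TM6, 611 to 627 in rho0, 166 to 193 in PKO-1 and 274 to 349 in PKO-6, for a contrast of -2.49 ± 0.06 (adjusted p = 1.6e-12). Dusp6, a phosphatase that inactivates ERK, rose from 1836 ± 126 in TM6 and 3640 ± 63.5 in rho0 to 6316 ± 266 in PKO-1 and 8921 ± 721 in PKO-6. Spry1, an inhibitor of receptor tyrosine kinase signalling, held 287 to 390 in the PNPase-positive libraries and 518 to 826 in PKO (1.06 ± 0.09). Jun, a subunit of the AP-1 transcription factor, held 5159 to 6772 against 9037 to 10970. Its smallest difference of 0.50 lay just inside the threshold, DESeq2's size factors took it to 0.49, and 5 of 12 leave-one-out fits did not call it. Further feedback or ERK response genes of the list were not shifted, among them Etv4, Etv5, Spry2, Spry4, Dusp4, Dusp5, Fosl1, Ier3, Fos and Egr2. The smallest difference was 0.03 for Dusp4, 0.04 for Fosl1 and 0.48 for Spry4. Against rho0, Etv5 was at -0.11 in PKO-1 and Spry2 at -0.18 in PKO-6.
Other receptors and ligands on the list were called in the contrast and not in all 4 differences. Pdgfra, a platelet-derived growth factor receptor, was at 342 ± 27.4 in TM6, 81.6 ± 12.5 in rho0, 3225 ± 65.0 in PKO-1 and 415 ± 14.6 in PKO-6. Gas6, a ligand of the AXL receptor family, was at 837 ± 19.6, 4.35 ± 3.04, 329 ± 27.4 and 300 ± 19.9, so that it was higher in PKO than in rho0 and lower than in TM6. Fgfr2, a fibroblast growth factor receptor, was at 1520 ± 50.6, 373 ± 17.5, 85.9 ± 2.19 and 452 ± 19.5.

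**Figure D3:**
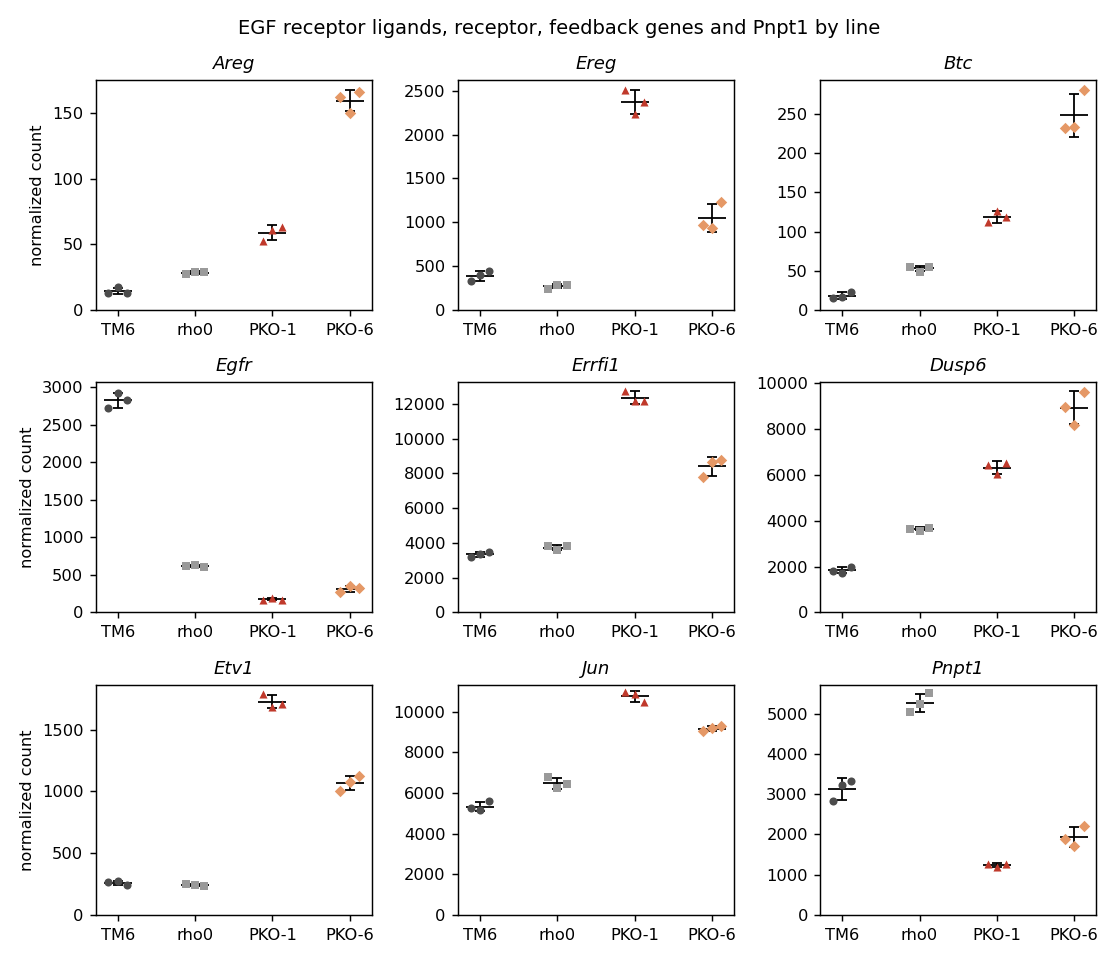
Normalized counts of 3 EGF receptor ligands, the receptor, 4 genes of feedback or the ERK response, and Pnpt1 in each library, by line, with the mean and SD of 3 replicates as black marks. The 6 PKO libraries lie above all PNPase-positive ones for Areg, Ereg, Btc, Errfi1, Dusp6, Etv1 and Jun, and below them for Egfr and Pnpt1.

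Ereg and Areg are neighbours on chromosome 5, with no other tested gene between them, and Btc lies on the same chromosome at chr5:91357261-91402994 (mm10). The 250 bases before the start site are shown for Areg and Btc (RefSeq, GRCm38.p6), since these ligands moved together. Capitals mark the cyclic AMP response element TGACGTCA.
Areg promoter, chr5:91139349-91139598, plus strand: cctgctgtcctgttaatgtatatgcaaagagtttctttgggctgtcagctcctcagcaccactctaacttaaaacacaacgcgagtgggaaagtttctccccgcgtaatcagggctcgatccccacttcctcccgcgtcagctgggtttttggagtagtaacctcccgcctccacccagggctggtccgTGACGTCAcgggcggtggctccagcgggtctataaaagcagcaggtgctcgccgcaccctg
Btc promoter, chr5:91402995-91403244, minus strand: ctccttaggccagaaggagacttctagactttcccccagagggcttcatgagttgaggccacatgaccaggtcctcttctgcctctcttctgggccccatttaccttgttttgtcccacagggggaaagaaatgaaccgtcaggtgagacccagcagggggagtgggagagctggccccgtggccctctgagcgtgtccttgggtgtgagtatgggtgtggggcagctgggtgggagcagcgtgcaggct
TGACGTCA, which reads the same on both strands, began at -61 in the Areg window and was not found in the Btc window. It was present in 1.55% of all 32851 promoter windows of this length and in 3.01% of those of tested genes. Among shifted genes, 2.52% of 159 higher and 3.49% of 86 lower genes with a window held it. The AP-1 motif TGANTCA, also the same on both strands and without overlap with TGACGTCA, was in neither window. It was in 10.1% of the higher and 5.81% of the lower genes, against 5.79% of tested genes. Another motif searched, TCACNCCAC on either strand, was in neither window. It was in 3.77% of the higher and 0% of the lower genes, against 1.245% of tested genes.

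In the matrix list more genes were lower than higher, but the list's median difference from TM6 was -1.31 in rho0 already, and against rho0 it was 0.21 for PKO-1 and -0.19 for PKO-6. The extracellular matrix of fibroblasts is built from fibrillar and basement membrane collagens, laminins, fibrillins and small proteoglycans. Of 58 tested members of the list, 10 were higher and 25 lower in the contrast (60.3%, against 20.8% of all tested genes). In all 4 differences 3 were higher and 7 lower (17.2%, against 2.42%). The median contrast was -0.61.
Fbn2, encoding the microfibril protein fibrillin 2, held 1705 to 2031 normalized counts in TM6, 951 to 1044 in rho0, 0 to 3.57 in PKO-1 and 37.3 to 45.0 in PKO-6. Bgn, the proteoglycan biglycan, held 23060 to 24290 in TM6, 3522 to 4300 in rho0, 258 to 279 in PKO-1 and 47.5 to 59.1 in PKO-6. Its contrast of -6.34 ± 0.07 (adjusted p = 5.0e-16) went with a fall from 318 TPM in TM6 to 0.670 TPM in PKO-6. Col4a6, a basement membrane collagen, held 350 to 509 in the PNPase-positive libraries against 3.57 to 25.2 in PKO, and Col8a2 held 74.2 to 563 against 6.39 to 16.6. In each of these 4 genes the highest PKO library lay at least 4 times below the lowest PNPase-positive one.
Col5a2 and Lamb2 fell by less. Col5a2, a chain of fibrillar collagen V, gave 63990 ± 1934 in TM6, 20100 ± 1062 in rho0, 13350 ± 122 in PKO-1 and 10340 ± 446 in PKO-6. Lamb2, a laminin beta chain, gave 11030 ± 1009, 4244 ± 176, 2945 ± 182 and 1999 ± 97.9, and its smallest difference of -0.53 was no longer called without PKO-1 replicate 1 or with chromosome medians removed. In both genes rho0 lay nearer to the clones than to TM6.
Dcn, the collagen-binding proteoglycan decorin, went the other way, from 25.3 ± 5.04 in TM6 and 8.20 ± 2.57 in rho0 to 183 ± 32.9 in PKO-1 and 147 ± 30.1 in PKO-6 (3.50 ± 0.18, adjusted p = 1.3e-09). Fbln2, a fibulin, held 34240 to 48250 against 55910 to 74340, and its call was lost without rho0 replicate 2 or PKO-6 replicate 2. Postn, which encodes periostin, was at 757 ± 47.9 in TM6 and at 1.11 to 1.81 on average in the other 3 lines. Mmp2, encoding a gelatinase, was at 1486 ± 85.4 in TM6 and 0 in all libraries of rho0, PKO-1 and PKO-6, so that it differed from TM6 in every derived line and not between PKO and rho0.

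Sterol and fatty acid genes separated into a part shared with rho0 and a part beyond it. Animal cells make cholesterol through the mevalonate pathway, whose genes the SREBP factors drive. All but 2 of the 20 tested sterol synthesis genes were lower in the contrast (18, or 90%, against 20.8% of all tested genes). Their median was -1.17, yet none was shifted, where 2.42% of all tested genes were. Both clones and rho0 lay more than 1 below TM6 on the log2 scale in 19 of the 20 sterol synthesis genes. The medians of PKO-1 and PKO-6 against rho0 were -0.002 and -0.16.
Cyp51, a lanosterol demethylase, gave 14660 ± 697 in TM6, 2122 ± 54.1 in rho0, 2131 ± 139 in PKO-1 and 1409 ± 104 in PKO-6. Fdps, which makes farnesyl pyrophosphate, gave 15290 ± 842, 2967 ± 415, 2523 ± 284 and 1879 ± 366. Nsdhl, another late enzyme of the pathway, gave 3724 ± 71.6, 510 ± 36, 515 ± 32.3 and 356 ± 26.5. In each, PKO-1 was close to rho0 and PKO-6 was the lowest.
In the list of sterol uptake and fatty acid control, 16 of 26 tested genes were lower and 1 higher in the contrast (65.4%, against 20.8%). In all 4 differences 4 were lower (15.4%, against 2.42%). Scd2, a stearoyl-CoA desaturase, gave 132100 ± 3178 in TM6, 51160 ± 2907 in rho0, 25140 ± 644 in PKO-1 and 15430 ± 1380 in PKO-6. Fads1 and Fads2, desaturase genes for long polyunsaturated fatty acids, lie side by side on chromosome 19. Fads1 gave 16600 ± 393, 8965 ± 623, 5789 ± 187 and 5899 ± 329, and Fads2 gave 7425 ± 272, 3313 ± 376, 2238 ± 85.0 and 1907 ± 228. Without rho0 replicate 1 the smallest difference of Fads2 was -0.49, short of the threshold. The order TM6, rho0, PKO held for the line means of Scd2, Fads1 and Fads2.
Insig1 and Scd1 fell in the contrast without meeting the stricter rule. Insig1, which retains SREBP in the endoplasmic reticulum, gave 13580 ± 35.9, 3616 ± 251, 2940 ± 339 and 2183 ± 109, and Scd1 gave 20810 ± 578, 9938 ± 494, 7262 ± 168 and 3978 ± 113. Cd36, a fatty acid transporter, was the 1 gene called higher and was low throughout, at 0.319, 2.55, 15.1 and 10.7 normalized counts on average.

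**Figure D4:**
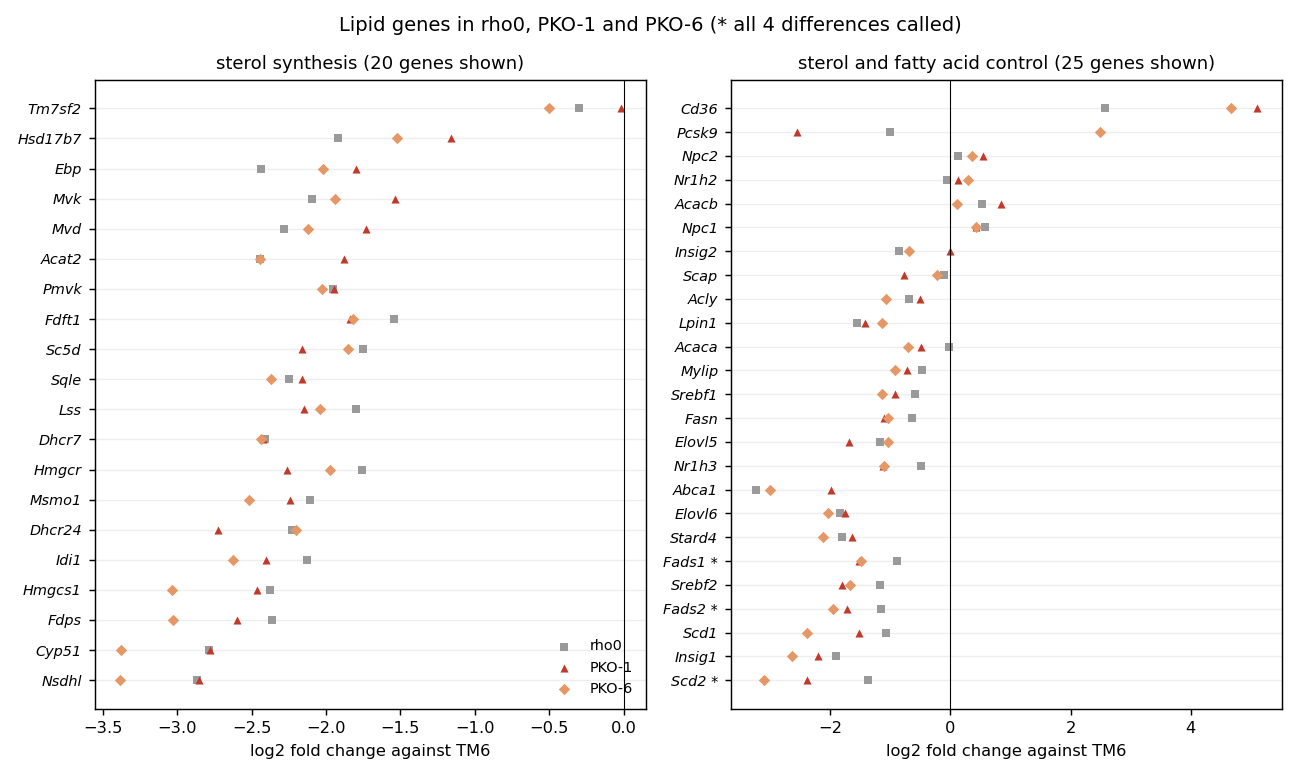
Log2 fold change against TM6 of rho0, PKO-1 and PKO-6 for the 20 sterol synthesis genes (left) and for genes of sterol and fatty acid control (right), with asterisks on the shifted genes shown. For sterol synthesis the rho0 squares lie among the PKO points, whereas for Scd2, Fads1 and Fads2 both PKO clones lie below rho0.

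Of 19 tested contractile genes of smooth and other muscle, 4 were higher and 8 lower in the contrast (63.2%, against 20.8% of all). In all 4 differences 2 were higher and 1 lower (15.8%, against 2.42%). The list's median difference from TM6 was -1.09 in rho0 already, and against rho0 it was 0.38 for PKO-1 and -0.22 for PKO-6. Acta2, smooth muscle actin, gave 11550 ± 303 in TM6, 737 ± 95.8 in rho0, 484 ± 31.0 in PKO-1 and 76.3 ± 20.04 in PKO-6. Its smallest difference was -0.61, and its call was lost without any 1 of the 3 PKO-1 libraries (adjusted p = 0.0126 to 0.0256). Tagln, encoding transgelin, was lower in the contrast (-3.17 ± 0.08) and not shifted. Des, the muscle intermediate filament desmin, rose from 5.19 to 15.5 in the PNPase-positive libraries to 39.4 to 54.8 in PKO, a low level of 0.443 to 0.503 TPM, and its call was lost without rho0 replicate 1 or 3 (adjusted p = 0.0104 and 0.0149).

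Among chemokine and prostanoid genes, Cxcl12 fell, as given above, and Ptgs1, Ptges and C3ar1 rose in all 4 differences. The list had 33 tested members, of which 10 were higher and 7 lower in the contrast (51.5%, against 20.8% of all). In all 4 differences 3 were higher and 1 lower (12.1%, against 2.42%). The list's median difference from TM6 was -0.92 in rho0, and against rho0 it was 0.69 for PKO-1 and 0.38 for PKO-6. Ptgs1, the cyclooxygenase that makes prostaglandin precursors, held 455 to 857 normalized counts in the PNPase-positive libraries, 3373 to 3848 in PKO-1 and 1366 to 1844 in PKO-6 (1.87 ± 0.08). Ptges, the prostaglandin E synthase, held 274 to 420 against 577 to 1065, and lost its call without PKO-6 replicate 2, where the smallest difference was 0.496. C3ar1, the receptor of complement fragment C3a, held 7.75 to 19.9 against 28.8 to 98.3, and 8 of 12 leave-one-out fits did not call it. Ccl7, a monocyte chemokine, was at 746 in TM6 and at 1.43, 4.84 and 5.77 in rho0, PKO-1 and PKO-6.

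Developmental regulators held shifted genes in each list, at 3.39% of the Wnt, TGF-beta and BMP list, 5.66% of the Hox and limb list and 10.7% of the imprinted list, against 2.42% of all tested genes. Of 59 tested genes of Wnt, TGF-beta and BMP signalling, 7 were higher and 19 lower in the contrast (44.1%, against 20.8% of all). Only Grem1 was higher and Wnt5a lower in all 4 differences. The list's median difference from TM6 was -0.92 in rho0 already, and against rho0 it was 0.08 for PKO-1 and 0.16 for PKO-6. Wnt5a, a noncanonical Wnt ligand, held 579 to 816 in the PNPase-positive libraries, 185 to 208 in PKO-1 and 77.7 to 104 in PKO-6 (-2.41 ± 0.08, adjusted p = 1.1e-11). Grem1, a secreted BMP inhibitor, gave 955 ± 69.9 in TM6, 2158 ± 86.9 in rho0, 3290 ± 70.5 in PKO-1 and 4543 ± 205 in PKO-6. These are the steps TM6, rho0, PKO-1, PKO-6 with no overlap of libraries.
Of 53 Hox and limb genes, 5 were higher and 12 lower in the contrast (32.1%, against 20.8%) and 3 were shifted. Runx3, a transcription factor of cartilage and sensory neurons, gave 1420 ± 68.0, 205 ± 10.7, 55.4 ± 1.42 and 0.942 ± 0.111. Dlx5, a homeobox gene of bone, held 42.9 to 52.5 in TM6, 15.5 to 25.2 in rho0, 2.38 to 5.17 in PKO-1 and 0 in PKO-6, and lost its call without rho0 replicate 1, PKO-1 replicate 1 or PKO-1 replicate 2. Hoxc6 held 814 to 1203 against 1606 to 1885, and its smallest difference of 0.53 was not enough for a call in 5 of 12 leave-one-out fits. Hand2 and Hoxd13, regulators of the posterior limb, were at 1489 ± 71.3 and 1358 ± 105 in TM6 and at 0 in every library of the other 3 lines.
Of 28 tested imprinted genes, 5 were higher and 5 lower in the contrast (35.7%, against 20.8%). Dcn and Igf2r were higher and Asb4 lower in all 4 differences. Igf2r, the scavenger receptor of insulin-like growth factor 2, was nearly level within each group, with 18560 to 19710 in the PNPase-positive libraries and 26400 to 29700 in PKO, and its smallest difference was 0.49 without PKO-1 replicate 2. Igf2r was also not called with chromosome medians removed. Asb4 held 33.2 to 152 against 0.819 to 7.14.

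The study named 28 axon genes from these samples, so the count of that list is not independent evidence. All 28 were called in the contrast, 14 in each direction, against 20.8% of all tested genes. In all 4 differences 8 were higher and 6 lower (50%, against 2.42%). The median contrast was 0.004. Nptx1, Etv1, Reln and Jun were among the higher members and Lama2, Dlx5 and Runx3 among the lower ones. Reln was not called in 10 of 12 leave-one-out fits, nor by DESeq2's Wald test (adjusted p = 0.0327).
The axon guidance families list was broader. Of 59 tested ligands and receptors, 14 were higher and 14 lower in the contrast (47.5%, against 20.8% of all), with a median of 0.03. In all 4 differences 3 were higher and 2 lower (8.47%, against 2.42%). Sema4d, a semaphorin of the class that signals through plexin B, held 93.1 to 219 in the PNPase-positive libraries and 428 to 594 in PKO (1.74 ± 0.08, adjusted p = 2.7e-10). Sema5a, another semaphorin, held 517 to 677 against 1098 to 1811 (1.22 ± 0.06). Slit2, a repellent ligand, was abundant in all lines, with 10110 to 11910 against 16990 to 19150, and its smallest difference was 0.49 without PKO-6 replicate 2 and also with chromosome medians removed. Its receptor Robo1 moved the opposite way, with 1606 to 2082 against 780 to 1012 (-1.06 ± 0.04, adjusted p = 4.9e-11). Plxna3, a semaphorin receptor on chromosome X, held 1757 to 2344 against 1012 to 1418. The median contrast of X was -0.454, and with chromosome medians removed Plxna3 was not called. Syn1, a synaptic vesicle protein and the 1 shifted neural marker of 4 tested, held 134 to 219 against 13.1 to 49.5, while the neural sum was highest in PKO-1, and its exons overlap those of Araf on the opposite strand.

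**Figure D5:**
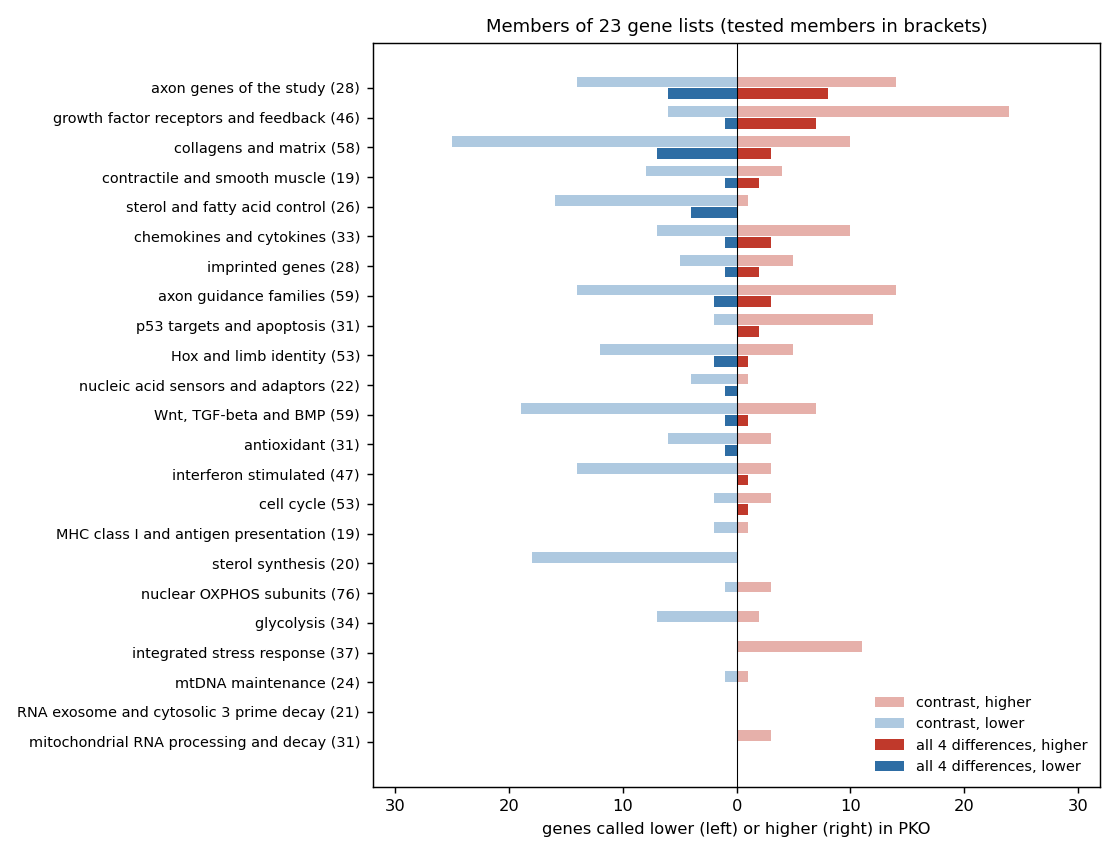
Number of members of 23 gene lists called lower (left of 0) or higher (right of 0) in PKO, by the equally weighted contrast (pale bars) and by all 4 differences (dark bars), ordered by the share shifted. Sterol synthesis and the integrated stress response have long pale bars and no dark ones, and 8 lists in all have no shifted member.

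In the lists tied to the known work of PNPase no gene was shifted, where 2.42% of all tested genes were, and lists this short may hold none at that share. Of 31 tested genes of mitochondrial RNA processing and decay, 3 were higher in the contrast (9.68%, against 20.8% of all). None was shifted, and the median was 0.02. Fastkd2, which binds mitochondrial RNA, gave 1122 ± 41.3 in TM6, 1754 ± 48.1 in rho0, 1867 ± 39.6 in PKO-1 and 2273 ± 100 in PKO-6. Slirp, a stabilizer of mitochondrial mRNA, gave 1304 ± 48.9, 1533 ± 220, 2264 ± 201 and 1771 ± 97.3, and the ribonuclease gene Rnaset2a gave 916 ± 82.5, 1940 ± 280, 1578 ± 102 and 2873 ± 103. The RNA exosome and cytosolic 3′ decay do in the cytosol and nucleus what PNPase does in mitochondria. None of the 21 genes of that list was called by either rule (median -0.06), where the contrast called 20.8% of all. Exosc1 and Exosc7, which encode exosome subunits, had contrasts of 0.36 and -0.35.
Of 24 mtDNA maintenance genes, 1 was higher and 1 lower in the contrast (8.33%, against 20.8% of all tested genes). Of 76 nuclear genes of oxidative phosphorylation, 3 were higher and 1 lower (5.26%). Of 34 glycolysis genes, 2 were higher and 7 lower (26.5%). No gene of these lists was shifted. Cox6a2, a muscle form of a cytochrome oxidase subunit, was at 2.18 ± 1.08 in TM6, 599 ± 119 in rho0, 61.2 ± 19.6 in PKO-1 and 970 ± 108 in PKO-6. RNA encoded by mtDNA was not analysed here.
The integrated stress response, which cells raise against mitochondrial faults, was highest in rho0 by its median. Of 37 genes 11 were higher in the contrast (29.7%, against 20.8% of all tested genes) and none was shifted. The median difference from TM6 was 1.53 in rho0, 0.49 in PKO-1 and 1.34 in PKO-6, and from rho0 it was -1.02 in PKO-1 and -0.18 in PKO-6. Cth, an enzyme of cysteine synthesis, gave 664 ± 29.6 in TM6, 11770 ± 865 in rho0, 3133 ± 328 in PKO-1 and 10370 ± 336 in PKO-6. Vldlr gave 272 ± 33.0, 8760 ± 118, 4233 ± 58.7 and 5474 ± 206.

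In the response to foreign nucleic acid, 2.13% of interferon stimulated genes and 4.55% of sensors and adaptors were shifted, against 2.42% of all tested genes. PNPase limits the escape of mitochondrial double-stranded RNA, which the cytosolic sensors can detect. Of 47 tested interferon stimulated genes, 3 were higher and 14 lower in the contrast (36.2%, against 20.8%). The median contrast was -0.23, and only Trim30a was shifted. The list's median difference from TM6 was -0.61 in rho0, -0.27 in PKO-1 and -0.70 in PKO-6. Trim30a, a RING finger protein induced by interferon, held 17.9 to 37.2 in the PNPase-positive libraries and 70.3 to 95.9 in PKO, and it lost its call without TM6 replicate 3, PKO-1 replicate 1 or PKO-1 replicate 2. Isg15, a ubiquitin-like protein, gave 243 ± 23.6 in TM6, 68.2 ± 8.89 in rho0, 50.7 ± 5.32 in PKO-1 and 19.8 ± 2.23 in PKO-6. Oasl1 gave 92.3 ± 18.9, 8.09 ± 1.21, 4.58 ± 3.55 and 6.84 ± 0.809.
Of 22 sensors and adaptors, 1 was higher and 4 lower in the contrast (22.7%, close to the 20.8% of all tested genes). Mb21d1, which encodes the DNA sensor cGAS, held 1101 to 1457 in the PNPase-positive libraries and 800 to 965 in PKO, a contrast of -0.60 ± 0.07 (adjusted p = 3.1e-06). Its smallest difference was -0.51, and it was not called in 6 of 12 leave-one-out fits or once chromosome medians were removed. None of 19 tested genes of MHC class I and antigen presentation was shifted. In the contrast 1 was higher and 2 lower (15.8%, against 20.8%).

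Among cell cycle, p53 and antioxidant genes 1.89%, 6.45% and 3.23% were shifted, against 2.42% of all tested genes. Of 53 cell cycle genes, 3 were higher and 2 lower in the contrast (9.43%, against 20.8% of all). Ccnd1, the cyclin that starts G1 after growth signals, was the 1 shifted gene. It held 12760 to 15190 normalized counts in the PNPase-positive libraries and 20560 to 24690 in PKO (0.74 ± 0.04, adjusted p = 7.9e-09). Of 31 p53 targets and apoptosis genes, 12 were higher and 2 lower in the contrast (45.2%, against 20.8%), and Ccng1 and Zmat3 were shifted. Ccng1, which encodes cyclin G1, held 3501 to 5877 against 12410 to 17970 (1.62 ± 0.06, adjusted p = 8.1e-11). Zmat3, an RNA-binding protein induced by p53, gave 3985 ± 57.7 in TM6, 5088 ± 54.3 in rho0, 7724 ± 74.9 in PKO-1 and 12130 ± 218 in PKO-6. Zmat3 was not called with chromosome medians removed. All 4 lines carry SV40 large T antigen, which binds p53. Cdkn1a, the cell cycle inhibitor p21, gave 941 ± 68.8, 4159 ± 337, 4431 ± 85.9 and 9331 ± 524, so PKO-1 did not stand clear of rho0.
Of 31 antioxidant genes, 3 were higher and 6 lower in the contrast (29%, against 20.8%), and Hmox1 alone was shifted. Hmox1, the heme oxygenase that is a common mark of oxidative stress, held 2963 to 3114 in TM6, 3993 to 4654 in rho0, 1169 to 1262 in PKO-1 and 1366 to 1431 in PKO-6. It was higher in rho0 than in TM6 and lower in both clones, with a contrast of -1.47 ± 0.04 (adjusted p = 5.4e-12). Tom1, the next gene on chromosome 8, also fell, from 1803 ± 6.74 and 1161 ± 106 to 815 ± 39.2 and 784 ± 20.8, and its call was lost without rho0 replicate 1, PKO-1 replicate 2 or PKO-1 replicate 3 and when chromosome medians were removed.

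Some shifted genes lay side by side. Among tested genes in chromosome order, 31 of the 340 formed 14 runs of adjacent shifted genes, and 13 runs had 1 direction. With 2.42% of all tested genes shifted, some runs arise without any link between neighbours. Their number was not computed, so nothing is read from the count. They included Ereg with Areg, Fads2 with Fads1, Mcpt8 with Gzme on chromosome 14, and Gm13152, Gm13154 and Zfp534 on chromosome 4. The longest run was 4 genes on chromosome 14, from 1700091H14Rik to Gm8267, all higher. The pair with opposite directions was Thbd and Cd93 on chromosome 2. Thbd, the thrombin receptor thrombomodulin, fell from 518 ± 26.0 in TM6 and 656 ± 37.3 in rho0 to 195 ± 9.23 in PKO-1 and 21.7 ± 5.55 in PKO-6, while Cd93 next to it rose.
Chromosome medians of the contrast ranged from -0.454 on X and -0.242 on 9 to 0.262 on 12. Against rho0 alone the medians of PKO-1 and PKO-6 were 0.04 and -0.11 on X and 0.03 and -0.007 on 12. On chromosome 12, 3.26% of 491 tested genes were shifted, 15 higher and 1 lower. On chromosome 9 it was 2.58% of 776, 4 higher and 16 lower, against 2.42% of all tested genes. Other chromosomes were uneven too, such as 5 (24 higher, 3 lower) and 17 (9 higher, 0 lower). Removing the chromosome medians left 297 shifted genes, of which 281 were among the 340.

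Near the threshold, Aldh2 and Jun lay just inside it, with a smallest log2 fold change of 0.501 each, and Dr1 and Zcchc3 just outside, at 0.497 and -0.498. Dr1 gave 3179 ± 436 in TM6, 3411 ± 59.9 in rho0, 5054 ± 527 in PKO-1 and 4813 ± 426 in PKO-6, and Aldh2 gave 6662 ± 312, 7307 ± 827, 10340 ± 140 and 10880 ± 975. Aldh2 was not called with chromosome medians removed.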

How the data were processed

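Total RNA of 12 MEF cultures was depleted of ribosomal RNA and sequenced as stranded paired libraries. Extraction was by TriZol or an RNeasy kit, which could not be assigned to samples, and whether the strand was used in counting is not given in the sources used here. The authors merged technical duplicate libraries, aligned reads to RefSeq transcripts of mm10 with Bowtie2 and deposited RSEM 1.2.25 estimated counts per gene. The deposited TPM per transcript, also made by the authors with RSEM, were summed per gene. Of the deposited estimated counts, 12.5% had decimals and all were rounded to whole numbers here.

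Genes were filtered with edgeR 4.0.16 (filterByExpr, minimum count 10), which left 14026 of 24453. Libraries were scaled by TMM, and a quasi-likelihood fit of 4 lines gave every contrast, with Benjamini-Hochberg adjustment over all tested genes. Normalized counts are counts divided by the scaled library size relative to the mean library. For shifted genes the p-value was the largest of 4. Values after ± are standard errors (SE, the log2 fold change divided by the root of F) for log2 contrasts and SD over 3 libraries for normalized counts. Library totals are given in the report, and no library pair was a duplicate (chi-square per degree of freedom 4.38 to 127). The edgeR fit of 4 lines was tested on simulated counts, which held no spread between lines beyond that between cultures. The alternative fits were not tested in that way.

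The genes described were the 12 higher and 12 lower with the largest smallest difference among shifted genes that averaged at least 100 normalized counts and did not overlap, Pnpt1, up to 6 shifted and 3 other members of each list, and 4 genes beside the threshold. Genes outside this rule were chosen after their values were seen. They were the line-block genes, Errfi1, Tgfa, Hbegf, Spry1, feedback genes not shifted, Fbln2, Col5a2, Lamb2, neighbours, and those of the closing section. Members and lists were chosen with earlier results of these data known. Alternatives were DESeq2 1.42.0 size factors and Wald test, no filter, other thresholds, glmTreat, a replicate block, chromosome medians removed, single clones or references, no line term, limma 3.58.1 with line as a random block, and each library left out. Promoters came from RefSeq (GRCm38.p6) and exon 2 from GENCODE vM21. RNA encoded by mtDNA was not used here, and results of some single genes are not reported here.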

Additional observations from a re-analysis of the deposited data

Results flagged for a closer look

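Of the 98 shifted genes described or listed by name, 36 differed between the PKO clones by the same limits (edgeR, PKO-1 minus PKO-6, log2 scale). PKO-1 was above PKO-6 in 19 and below it in 17. Another 4 genes also met these limits, but a clone had at most 3 counts per library, and they are left out of the 36. All moved 1 way against both references, so these are differences in size.
Among genes that rose, PKO-1 was the higher clone for Pde8b (1.58), Spp1 (1.42), Ptgs1 (1.22), Ereg (1.18), Pde3b (1.09), Car8 (0.89), Ptges (0.76), Gm8267 (0.73), Etv1 (0.69), Ugt1a6a (0.58), 4930503E14Rik (0.57) and Errfi1 (0.55). PKO-6 was the higher clone for Gm13154 (-2.97), Zfp534 (-2.85), Nptx1 (-2.24), Mcpt8 (-1.95), Tnnt2 (-1.91), Areg (-1.44), C3ar1 (-1.18), Btc (-1.06), Prkg1 (-0.77), Zmat3 (-0.65) and Cd93 (-0.60).
Among genes that fell, PKO-6 was the lower clone for Thbd (3.17), Acta2 (2.65), Bgn (2.40), Wnt5a (1.12), Fam129a (0.91), Scd2 (0.70) and Lamb2 (0.56). PKO-1 was the lower clone for Lama2 (-1.97), Col4a6 (-1.75), Fam65b (-1.15), Syn1 (-1.09), Egfr (-0.84) and Pnpt1 (-0.65). Both clones carried the same deletion, and what set them apart was not tested.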

How the results depend on the processing

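The contrast of the 6 PKO against the 6 PNPase-positive libraries called 2917 genes and the rule of 4 differences 340. Both counts stayed within 1.5 times under DESeq2 size factors (2939 and 339, with 329 shifted genes shared), DESeq2's Wald test (2997 and 367, 329 shared), no filter (3056 and 346) and removal of chromosome medians (2595 and 297). Replicate numbers were not taken to pair the samples, because the labels give no shared origin and correlations of same-numbered libraries ran from -0.385 to 0.25, with 10 of 18 above 0.1, among them all 3 of TM6 with PKO-6. The replicate block gave 2874 and 328 genes (321 shared) and -1.39 for Pnpt1, and C3ar1, Dlx5 and Reln were not called under it. Leaving out single libraries gave 2795 to 3117 genes in the contrast, 292 to 328 shifted genes and -1.44 to -1.36 for Pnpt1.
Thresholds and references moved by construction the contrast of the 6 PKO against the 6 PNPase-positive libraries and the shifted genes. The adjusted p alone gave 7087 and 537 genes, a log2 fold change above 1 gave 1366 and 157, and glmTreat against 0.5 gave 1634 and 137. With fewer differences required, shifted genes numbered 1425 for PKO-1 alone, 1503 for PKO-6 alone, 3037 for TM6 alone as the reference and 1193 for rho0 alone, and TM6 alone gave 4911 genes in the contrast. Without a line term 704 genes were called (416 higher, 288 lower), and 9 with the line as a random block (6 higher, 3 lower), where Pnpt1 stood at -1.37 with an adjusted p of 0.149.
A change of sign was counted as reversed only for genes called in the contrast or shifted. Of the genes followed through every alternative, 16 values reversed, all of genes that were not shifted. Fits with 1 clone or 1 reference cannot reverse a shifted gene by construction. With PKO-1 alone these were Kdr -0.27, Krt18 1.34, Ldhb 0.0895 and Snrpn 2.23. With PKO-6 alone they were Ciart 0.0863, Nqo1 -0.0804, Psmb8 0.87 and Ptgfr -1.40. With TM6 alone they were Ciart 0.11, Gas6 -1.41, Sod3 -2.19 and Uqcrh -0.0511. With rho0 alone they were Ccl7 1.78, Cox6a2 -1.29, Cth -1.05 and Vldlr -0.86. The cause was not tested beyond the line left out. A gene was tested when it reached about 10 counts in at least 3 libraries, so genes low in every line are not covered. Genes absent from the PKO libraries, such as Zfp518b, passed this filter through the PNPase-positive ones.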

Other observations

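The genes here were grouped after their values were seen. Circadian clock genes gave 4 shifted members of 19 tested, where 2.42% of all tested genes were shifted and 20.8% called in the contrast, and the choice after the values leaves nothing to be read from the count. Per2, a repressor of the clock, fell from 776 ± 98.0 normalized counts in TM6 and 827 ± 124 in rho0 (SD, n = 3) to 241 ± 19.7 in PKO-1 and 246 ± 28.9 in PKO-6. Cry2, its partner, and Tef, an output factor, fell by 0.98 and 1.13 on the log2 scale in the contrast. Usp2, a deubiquitinase with a daily rhythm, rose by 1.09. In the contrast 3 of the 19 were higher and 8 lower.

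Of 11 tested genes of prostanoid synthesis and response, also grouped after the fact, 4 were higher in all 4 differences (Ptgs1, Ptges, Ptger4 and Ptgr2, against 2.42% of all genes), and 7 were higher and 1 lower in the contrast (against 20.8%). Ptger4, a prostaglandin E2 receptor that raises cyclic AMP, gave 102 ± 13.3 in TM6, 93.7 ± 8.90 in rho0, 303 ± 2.74 in PKO-1 and 329 ± 34.7 in PKO-6. Ptgr2, which breaks prostaglandins down, gave 741 ± 46.9, 1095 ± 33.1, 2194 ± 107 and 2246 ± 80.1.

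Cd80, a costimulatory ligand of antigen-presenting cells, was low in the PNPase-positive lines, at 8.39 ± 1.30 in TM6 and 7.91 ± 3.82 in rho0, and at 160 ± 13.9 in PKO-1 and 178 ± 10.9 in PKO-6. Its contrast was 4.36 ± 0.16 (edgeR, adjusted p = 4.5e-11). Hmga2, a chromatin protein of growing cells, gave 22460 ± 1449, 32630 ± 1445, 67560 ± 1439 and 54210 ± 3979.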
